A study of Arabidopsis thaliana with 4 samples.

Results

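Root tips of wild-type Arabidopsis thaliana (accession Col-0) grown with low phosphate were compared with root tips of the same accession grown with high phosphate, locus by locus. Of 33602 loci counted in both libraries, the 18692 with a mean of at least 1 CPM over the series' 4 libraries were compared, where CPM is the count scaled to a common library size. In these root tips 606 loci were higher and 278 lower at low phosphate, which is 3.24% and 1.49% of the loci compared, or 4.73% together. Of 62 measured phosphate starvation genes, for phosphate signalling, transport, recovery and lipid exchange, 25 were higher and 0 lower, with IPS1 266-fold, G3PP1 75.7-fold and PEPC1 63.5-fold higher. Suberin genes were higher in 13 of 19 cases, heat shock genes in 5 of 10, flavonoid genes lower in 5 of 8, and the iron superoxide dismutase gene FSD1 was 16.2-fold lower.

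Inorganic phosphate is the form of phosphorus that roots take up, and shortage changes root metabolism along routes that are commonly called systemic and local. In the systemic route, MYB-type transcription factors of the PHR1 family bind a short promoter element named P1BS, and SPX domain proteins hold them back while phosphate is ample. The local route acts in the root tip, where the transcription factor STOP1, the malate channel ALMT1 and the ferroxidase LPR1 link external phosphate to iron in the cell wall and to arrest of the primary root.

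The study sequenced RNA from root tips of Col-0 and of med16-2, a mutant in Mediator subunit 16 in the Col-0 background, each at low and at high phosphate. Seedlings of the 2 groups compared here were Col-0 (stock CS70000) sampled 4 days after germination, on plates with 0.1X modified MS medium, 0.5% sucrose and 1% agar at pH 5.7, holding 5 µM phosphate in the low phosphate group and 1 mM phosphate in the high phosphate group. Each group has 1 library, so every difference below compares 2 libraries, has no replicate check and carries no p-value. A locus is called higher or lower at low phosphate when the scaled ratio was at least 2-fold and its exact 95% interval excluded equality. Ranges in parentheses are these intervals, and they cover counting error only, not the variation between plants. Counts of called members in the lists below stand beside 3.24% higher and 1.49% lower over all loci compared. No list was tested against these shares.

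Gene counts totalled 15696333 at low phosphate and 10079345 at high phosphate, so that a count of 0 allows up to 0.188 CPM at low phosphate and 0.305 CPM at high phosphate. Reads with several alignments made up 6.65% of the reads listed at low phosphate and 9.27% at high phosphate. Mitochondrial loci took 1.25% of gene counts at low phosphate and 0.501% at high phosphate. Most mitochondrial counts came from 1 locus, ATMG00020, with 134912 counts at low phosphate and 31386 at high phosphate. Of 26 mitochondrial loci 4 were higher and 2 lower, where 3.24% and 1.49% of all loci compared were. The tissue label was checked with marker genes. In each library the meristem patterning genes PLT1 (310 counts at low phosphate, 243 at high phosphate), SHR (553 and 233) and SCR (822 and 436) were read. So was the hair gene EXPA7 (1816 and 1448). These are raw counts from libraries of unlike depth, so they show presence and not the direction of a difference. The quiescent centre gene WOX5 had 56 counts at low phosphate and only 5 at high phosphate. The 9 measured root cap genes summed to 248 CPM at low phosphate and 256 CPM at high phosphate. Photosynthetic genes of the shoot were present but low, with a sum over 16 measured genes of 314 CPM at low phosphate and 433 CPM at high phosphate, and RBCS1A had 65 and 108 counts. The bulk libraries cannot tell fewer cells of a type from less RNA per cell.

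**Figure D1:**
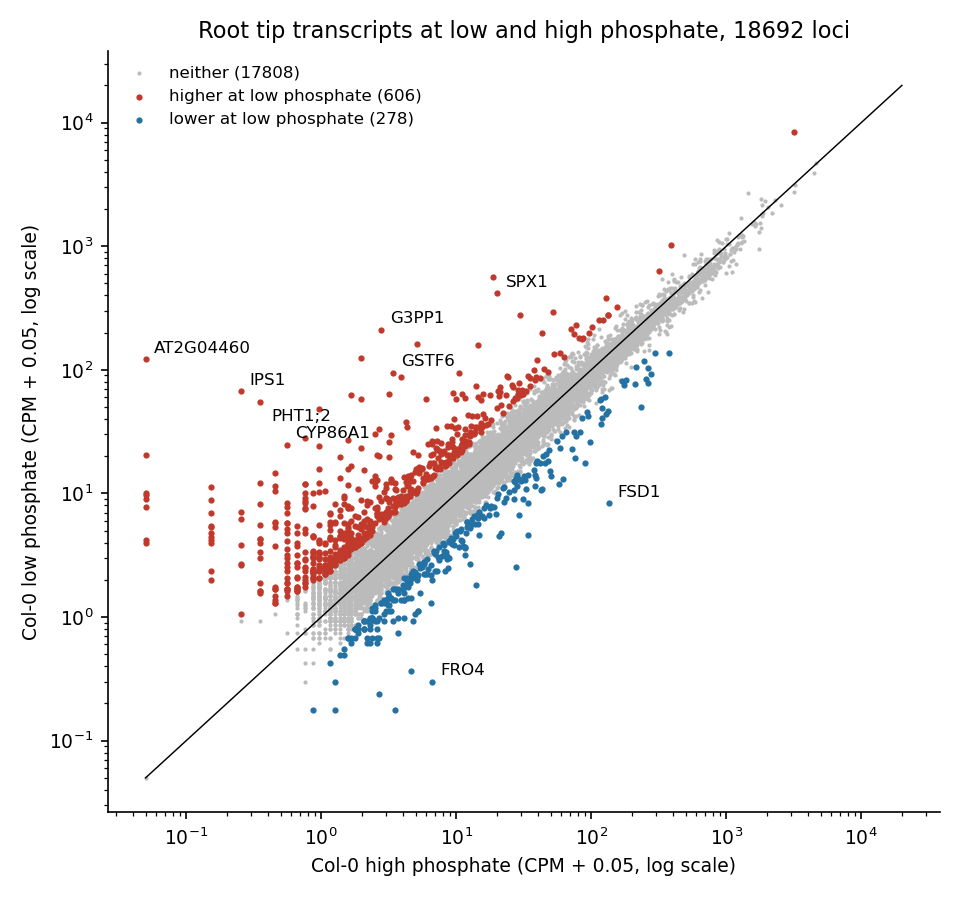
Scaled CPM of the 18692 loci compared, Col-0 low phosphate on the vertical axis and Col-0 high phosphate on the horizontal axis, both logarithmic after adding 0.05, with the diagonal marking equality. Red points are the 606 loci higher and blue points the 278 loci lower at low phosphate; the loci farthest from the diagonal lie on the side of low phosphate.

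Differences were lopsided towards low phosphate at large sizes. At least 4-fold, 164 loci were higher and 30 lower, or 0.877% and 0.16% of the loci compared. The low phosphate library was the deeper, and part of the excess rests on few counts at high phosphate. With a pseudocount of 5 in place of 0.5, the 2-fold rule left 456 of the 606 higher loci and 268 of the 278 lower. The log2 ratio of low over high phosphate had a median of -0.02 over all loci compared, with the 5th percentile at -0.59 and the 95th at 0.80. Of the called loci, 587 of the higher and 263 of the lower are annotated as protein-coding.

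Among genes of phosphate signalling, 5 of the 15 measured were higher and 0 lower. The list's median log2 ratio of 0.05 stood close to the -0.02 of all loci, since the members fell into a strongly higher group and a group near equality. IPS1 (AT3G09922), a non-coding RNA that sequesters miR399, had 1077 counts at low phosphate, against 2 at high phosphate, and was 266-fold higher (91.8 to 2748). Its relative AT4 (AT5G03545) had 9017 counts at low phosphate, against 185 at high phosphate, a ratio of 30.0-fold (26.0 to 35.0). Per kilobase of exon, AT4 was the more abundant of the pair, at 603 CPM per kilobase at low phosphate and 20.1 at high phosphate, where IPS1 stood at 124 and 0.375.

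MicroRNA399 lowers the ubiquitin conjugase PHO2, and IPS1 and AT4 carry a site that pairs with it except for a bulge opposite its middle, which prevents cleavage. The sites are shown because they lie in non-coding transcripts that were far higher at low phosphate. They were read from the TAIR10.1 genome at chr3:3051224-3051247 (plus strand, in the IPS1 exon) and chr5:895149-895172 (plus strand, in the AT4 exon). Capitals in miR399b (chr1:23345387-23345407, minus strand) mark the seed, bases 2 to 8. Capitals in the sites mark bases complementary to miR399b when 3 inserted bases are left unpaired between the bases facing its positions 10 and 11, which holds for 18 of its 21 bases at both sites.
miR399b: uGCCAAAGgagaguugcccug
IPS1 site: uuGGGCAACUucuaUCCUUUGGCA
AT4 site: uuGGGCAACUucgaUCCUUUGGCA
The miR399 precursor loci gave few reads in these mRNA libraries. MIR399b had 5 counts at low phosphate and 0 at high phosphate, MIR399d had 2 and 0, and the loci of miR399a, miR399e and miR399f had 0 in both, so no level can be given for them. The 5 mature miR399 sequences at these loci share the seed GCCAAAG. The precursor locus of miR827, whose target NLA also limits phosphate uptake, had 36 counts at low phosphate and 0 at high phosphate, and fell under the CPM minimum. The target genes PHO2 and NLA had log2 ratios of -0.25 (-0.37 to -0.12) and 0.03 (-0.24 to 0.30).
miR827: uUAGAUGAccaucaacaaacu

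SPX domain genes divided by member. SPX1 (AT5G20150) had 6686 counts at low phosphate and 198 at high phosphate, 20.8-fold higher (18.1 to 24.1). SPX3 (AT2G45130) had 232 and 4 counts, 31.9-fold higher (13.8 to 132). SPX2 was 2.70-fold higher (2.34 to 3.13), from 1003 counts at low phosphate and 229 at high phosphate. SPX4 did not meet the rule, at 222 and 159 counts and a log2 ratio of -0.22 (-0.52 to 0.09). The transcription factor genes they restrain were near equality, PHR1 at -0.23 (-0.39 to -0.08) and PHL1 at 0.13 (-0.16 to 0.42). Genes for making the inositol pyrophosphates that SPX domains bind did not meet the rule either, with AtVIP1 at 0.45 (0.28 to 0.63) and ITPK1 at -0.16 (-0.28 to -0.04).

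For phosphate transport, 12 of 22 listed genes passed the CPM minimum, of which 5 were higher and 0 lower, with a median log2 ratio of 0.54. The uptake transporter gene PHT1;4 (AT2G38940) had 4453 counts at low phosphate, against 290 at high phosphate, and was 9.46-fold higher (8.41 to 10.7). PHT1;1 (AT5G43350), another plasma membrane uptake transporter, had 3529 and 994 counts and was 2.19-fold higher (2.04 to 2.35). For PHT1;2 (AT5G43370), 871 reads at low phosphate and 3 at high phosphate gave a 154-fold ratio (61.1 to 871). It is uncertain, since close relatives share its sequence and reads with several alignments were set aside. Per kilobase of exon, PHT1;4 stood at 140 CPM at low phosphate and 14.7 at high phosphate, and PHT1;1 at 110 and 50.1.
PHF1, needed for PHT1 proteins to leave the endoplasmic reticulum, was 2.25-fold higher (2.01 to 2.53). PHO1;H1, a relative of the xylem loading exporter PHO1, had 996 counts at low phosphate and 176 at high phosphate and was 3.48-fold higher (2.97 to 4.12). PHO1 itself had 3048 and 1031 counts and a log2 ratio of 0.87 (0.77 to 0.97), below the 2-fold limit. The mitochondrial phosphate carrier gene PHT3;1 was at -0.26 (-0.31 to -0.22). Of the 5 glycerol-3-phosphate permease genes, G3PP1 (AT3G47420) had 3373 counts at low phosphate and 27 at high phosphate, 75.7-fold higher (52.9 to 117), and G3PP3 had 74 and 21, 2.14-fold higher (1.32 to 3.72). G3PP2 had a log2 ratio of -0.85 (-1.01 to -0.70), which did not meet the rule.

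Phosphatases and nucleases free phosphate from organic molecules, and 6 of 14 measured were higher and 0 lower, with a median log2 ratio of 0.80. PEPC1 (AT1G17710), which encodes a phosphatase for phosphoethanolamine and phosphocholine, had 2005 counts at low phosphate and 19 at high phosphate, 63.5-fold higher (41.6 to 108). The purple acid phosphatase gene PAP17 (AT3G17790) had 2592 and 50, 31.7-fold higher (24.2 to 43.2). PAP17 overlaps AT3G17800, and these unstranded libraries cannot separate reads of the overlap. Other genes named in this report also overlap a neighbour, among them GDPD1, UGP3, LPR1, FER1, NRT1.8, ETC1, IAA5, YUC7, MAX4, CHS, CCR2 and CHI-B. PS2, a pyrophosphatase gene, was 10.9-fold higher (9.22 to 13.0) and the ribonuclease gene RNS1 was 5.88-fold higher (4.79 to 7.36). PAP22 rose 2.48-fold (1.72 to 3.74) and PAP12 2.05-fold (1.90 to 2.22). The abundant vacuolar and secreted enzyme PAP26 had 5828 counts at low phosphate and 4162 at high phosphate, a log2 ratio of -0.21 (-0.27 to -0.15).

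Lipid remodelling replaces membrane phospholipids with lipids free of phosphorus, and 7 of 16 measured genes were higher and 0 lower, with a median log2 ratio of 0.88. Of the genes that break down phospholipids, the phospholipase C gene NPC4 had 430 counts at low phosphate and 15 at high phosphate, 17.1-fold higher (10.6 to 31.9). GDPD1, which hydrolyses glycerophosphodiesters, had 1489 and 102, 8.97-fold higher (7.37 to 11.1), and the phospholipase D gene PLDZ2 was 3.36-fold higher (2.72 to 4.21).
Of the genes that build the replacements, the sulfolipid synthesis genes SQD1 and SQD2 rose 5.33-fold (4.47 to 6.42) and 2.09-fold (1.97 to 2.23). Galactolipid synthase genes rose too, MGD3 by 3.99-fold (3.09 to 5.30) and MGD2 by 2.27-fold (1.82 to 2.87). The housekeeping synthase gene MGD1 and the digalactolipid synthase genes DGD1 and DGD2 had log2 ratios of 0.68, 0.86 and 0.89 and stayed under 2-fold, as did the lipin gene PAH1 at 0.83. PLDZ1 was at -0.18 and GDPD2 at -0.31, so within each of these small families the members differed in response.

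Metabolic genes that spare phosphate were higher in 4 of 12 measured cases and lower in 0. The phosphoenolpyruvate carboxylase kinase genes PPCK2 and PPCK1 were 3.46-fold (2.30 to 5.55) and 3.04-fold (2.73 to 3.40) higher. PPC2, a phosphoenolpyruvate carboxylase, had 1020 counts at low phosphate and 280 at high phosphate, 2.25-fold higher (1.97 to 2.58). UGP3, a plastid UDP-glucose pyrophosphorylase that feeds sulfolipid synthesis, was 3.27-fold higher (2.71 to 3.99).

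**Figure D2:**
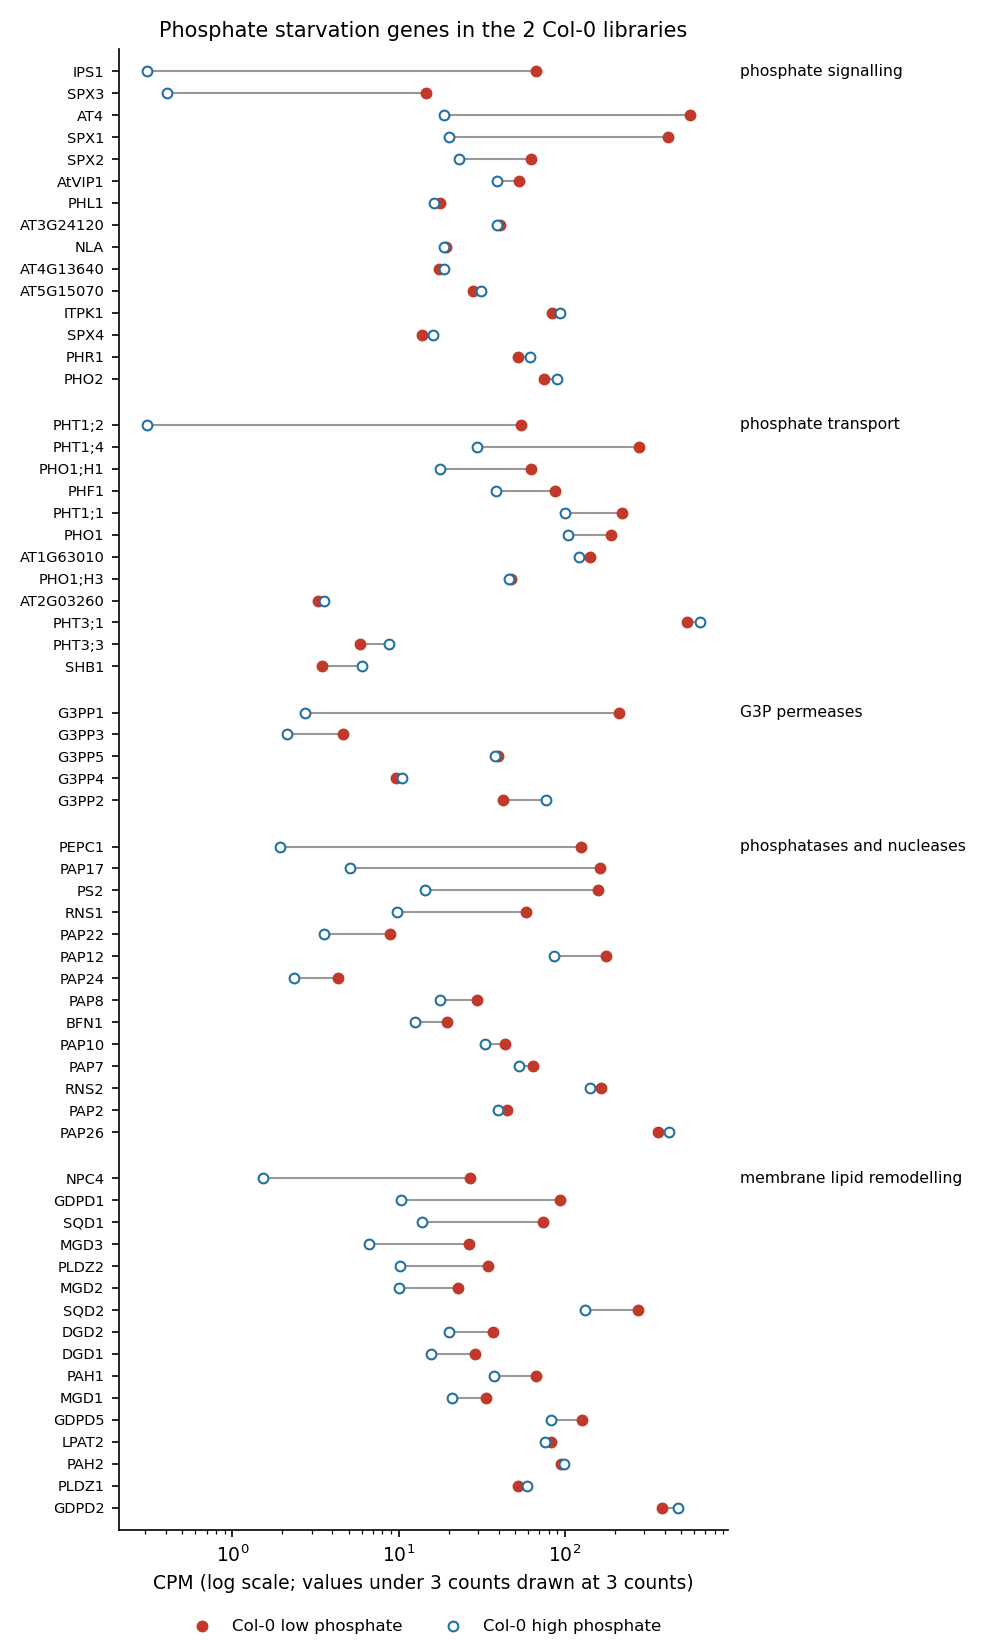
Scaled CPM (logarithmic axis) of the 62 measured phosphate starvation genes in 5 lists, with filled red points for Col-0 low phosphate and open blue points for Col-0 high phosphate. IPS1, G3PP1 and PEPC1 show wide gaps between their points, while members such as PHO2, PHT3;1, PAP26 and GDPD2 have the 2 points close together or in reverse order.

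Promoters of these genes were searched for the P1BS element, written GNATATNC, in the 250 bases before the start of each gene in the RefSeq annotation of TAIR10.1. The element reads the same on both strands. It was found in 8 of the 25 phosphate starvation genes that were higher (32%), in 7 of the 37 that were not (18.9%), and in 5.43% of the 18620 windows of all loci compared. Among all 601 genes higher with a window the share was 10.8%, among 276 lower it was 5.07%. A match describes letters only, and genes without one, among them IPS1, SPX1 and PAP17, were searched in this window alone. The 4 promoters below are shown because they hold the element in genes that were higher, and SPX3 and GDPD1 hold 2 copies; capitals mark the element, and each runs to the base before the annotated start.
SPX3 promoter, chr2:18606160-18606409, plus strand: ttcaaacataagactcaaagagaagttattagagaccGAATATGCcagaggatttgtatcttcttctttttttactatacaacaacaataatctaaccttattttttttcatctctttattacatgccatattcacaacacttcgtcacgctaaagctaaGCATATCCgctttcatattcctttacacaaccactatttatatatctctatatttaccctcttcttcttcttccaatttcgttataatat
AT4 promoter, chr5:894332-894581, plus strand: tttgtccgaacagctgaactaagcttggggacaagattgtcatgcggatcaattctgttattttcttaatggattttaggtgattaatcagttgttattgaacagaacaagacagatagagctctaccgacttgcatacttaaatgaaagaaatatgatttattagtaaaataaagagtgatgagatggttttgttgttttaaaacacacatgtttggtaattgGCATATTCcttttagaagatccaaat
GDPD1 promoter, chr3:350011-350260, minus strand: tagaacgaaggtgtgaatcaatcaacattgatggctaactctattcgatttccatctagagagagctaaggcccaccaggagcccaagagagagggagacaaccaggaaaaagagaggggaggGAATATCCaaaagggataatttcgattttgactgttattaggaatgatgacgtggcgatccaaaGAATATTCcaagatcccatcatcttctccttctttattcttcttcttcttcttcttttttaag
MGD2 promoter, chr5:6896213-6896462, plus strand: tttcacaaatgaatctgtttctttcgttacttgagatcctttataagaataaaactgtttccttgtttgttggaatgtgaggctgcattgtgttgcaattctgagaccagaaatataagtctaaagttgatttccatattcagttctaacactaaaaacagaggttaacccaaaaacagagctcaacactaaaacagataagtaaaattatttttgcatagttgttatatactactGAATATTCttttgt
The first copy began 213 bases before the start in SPX3, 127 in GDPD1, 26 in AT4 and 14 in MGD2. PLDZ2, NPC4, PS2 and PHT1;2 were the other genes among the 8.

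In the local pathway of STOP1 and aluminium tolerance, 1 of 16 measured genes was higher and 0 lower, and the median log2 ratio was 0.10. ALMT1 (AT1G08430), the malate channel, had 3151 counts at low phosphate and 421 at high phosphate and was 4.61-fold higher (4.17 to 5.13). STOP1, its activator, had 1850 and 1224 counts and a log2 ratio of -0.10 (-0.21 to 0.00), and LPR1 had 173 and 120 counts, at -0.17 (-0.51 to 0.18).

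Iron storage genes were higher in 2 of 10 measured cases, with a median log2 ratio of 0.50: the ferritin gene FER1 (AT5G01600) had 3644 counts at low phosphate and 757 at high phosphate, 2.97-fold higher (2.75 to 3.22), while VTL2, annotated as a vacuolar iron transporter homologue, had 62 and 18, 2.08-fold higher (1.24 to 3.82). In the iron uptake list 2 of 16 measured genes were higher and 1 lower. The uptake transporter gene IRT1 had 17 counts at low phosphate and 51 at high phosphate, 4.77-fold lower (2.76 to 8.98), and its regulator FIT had 203 and 244 counts and a log2 ratio of -0.96 (-1.24 to -0.69). NAS1 and NAS2, whose enzymes make the metal chelator nicotianamine, rose 2.14-fold (1.29 to 3.84) and 2.02-fold (1.42 to 2.98).
FSD1 (AT4G25100), the iron superoxide dismutase, had 132 counts at low phosphate and 1323 at high phosphate, 16.2-fold lower (13.6 to 19.6). FRO4 (AT5G23980), a ferric and cupric reductase gene, had 4 and 65 counts, a log2 ratio of -4.56 (-6.64 to -3.29). Its neighbour FRO5, which fell under the CPM minimum, had 1 count at low phosphate and 18 at high phosphate, and the copper transporter gene COPT2, likewise under it, had 1 and 9. FSD1 and FRO4 were the 2 of 12 measured genes of superoxide dismutases and copper that met the rule. ZIP2, a zinc transporter gene, was the 1 of 14 zinc transport genes that met it, 4.71-fold lower (4.02 to 5.54). That 1 gene is 7.14% of its list, where 1.49% of all loci compared were lower.

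Sulfate genes went both ways, 4 higher and 4 lower of 19 measured. The high-affinity transporter genes SULTR1;1 and SULTR1;2 fell by 2.45-fold (2.08 to 2.89) and 2.44-fold (2.23 to 2.68). Their relative SULTR1;3, known from the phloem, had 66 counts at low phosphate and 0 at high phosphate. Set against 3 counts, its ratio was 13.6-fold (the exact interval starts at 10.7-fold). SULTR3;4 was 3.01-fold higher (2.24 to 4.19), the sulfate reduction gene APR1 2.27-fold (2.05 to 2.53) and LSU2, a gene of the sulfur deficiency response, 4.60-fold (3.05 to 7.49). GGCT2;1, a glutathione degrading enzyme, and SDI1, both also sulfur deficiency genes, were lower, at log2 ratios of -1.32 (-1.85 to -0.81) and -1.09 (-1.45 to -0.74). In the nitrate and ammonium list 2 of 24 were higher, 8.33% against 3.24% of all loci compared. They were the nitrate transporter gene NRT1.8 at 3.42-fold (2.15 to 5.92) and the ammonium transporter gene AMT1;2 at 2.45-fold (2.04 to 2.98).

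Genes for suberin, the lipid polyester deposited on endodermal walls, were higher in 13 of 19 measured cases and lower in 0, with a median log2 ratio of 1.61. The fatty acid hydroxylase gene CYP86A1 (AT5G58860) had 396 counts at low phosphate and 5 at high phosphate, 44.5-fold higher (20.8 to 151). The transporter gene ABCG6 had 382 and 9, 24.8-fold higher (13.7 to 57.7), and FAR4, a fatty acyl reductase gene, had 133 and 5, a log2 ratio of 3.90 (2.78 to 5.68). MYB93, a transcription factor gene, had 62 and 1 counts, 25.7-fold higher (6.62 to 1535).
CYP86B1 and FAR5 were at log2 ratios of 2.89 and 2.88, and the acyltransferase genes GPAT5 and GPAT7 at 2.76 and 2.59. The regulators MYB53, MYB39 and MYB9 were at 2.11, 1.61 and 1.28, the transporter gene ABCG20 at 1.40 and the feruloyl transferase gene ASFT, by far the most read member with 2013 and 615 counts, at 1.01. With a CPM minimum of 5 in place of 1, 5 suberin members met the rule and the list's median log2 ratio was 0.99. Outside the lists, 2 of the genes with the largest ratios are annotated as a GDSL-like lipase and an SGNH esterase: AT2G23540 had 446 counts at low phosphate and 7 at high phosphate, and AT5G37690 had 193 and 3.
Casparian strip genes of the same cell layer, by contrast, had 0 of 11 measured members called in either direction and a median log2 ratio of 0.18. CASP1 had 3481 and 1939 counts at 0.15 (0.07 to 0.23), and AT1G61590, a protein kinase gene, was farthest from equality at 0.76 (0.59 to 0.93). The counts of suberin and Casparian strip genes were not tested against each other.

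**Figure D3:**
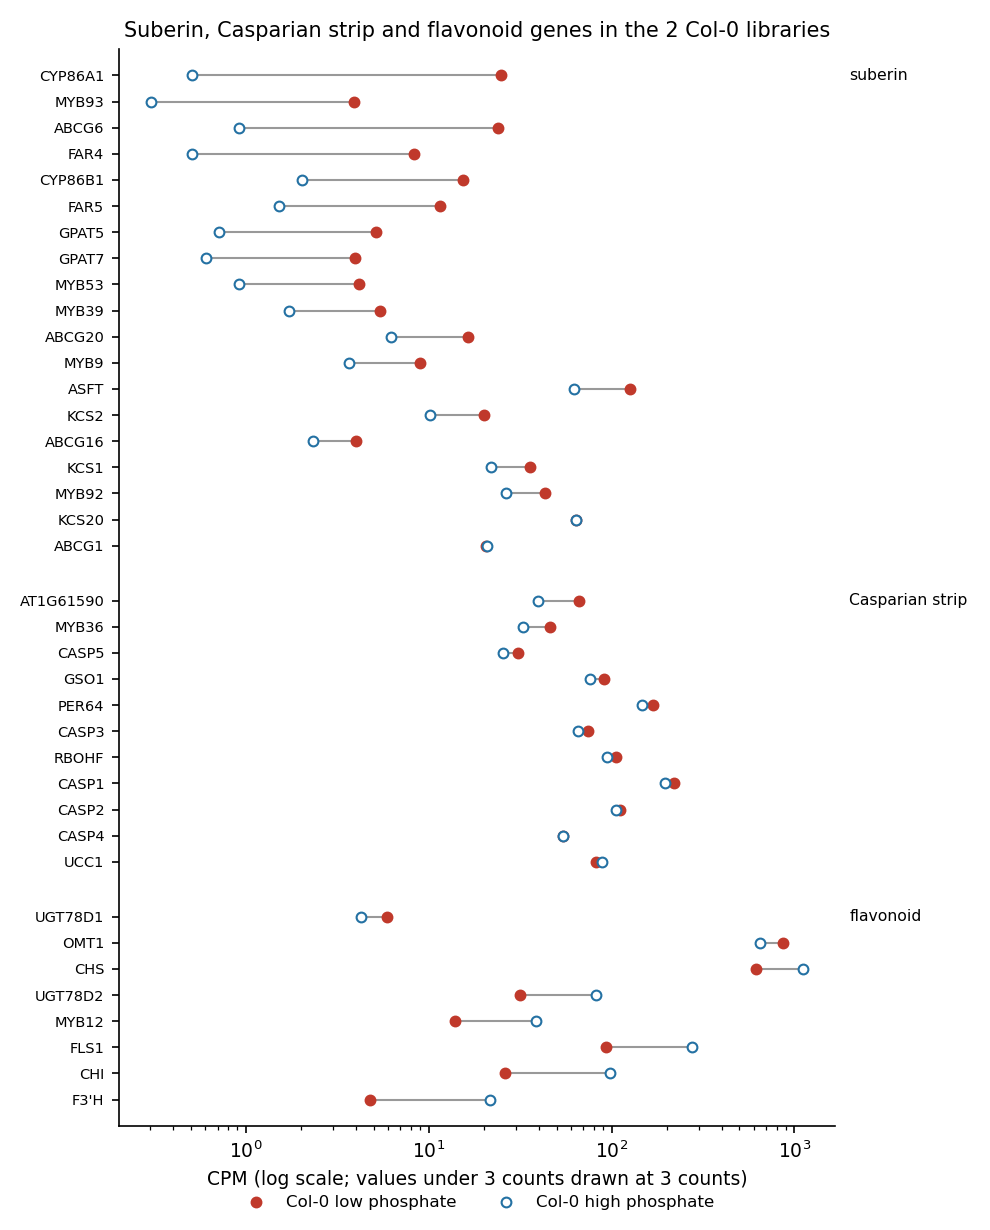
Scaled CPM (logarithmic axis) of the measured suberin, Casparian strip and flavonoid genes, with filled red points for Col-0 low phosphate and open blue points for Col-0 high phosphate. Suberin genes separate most at the low end of the scale, the 11 Casparian strip genes stay close together, and 6 of 8 flavonoid genes have the low phosphate point on the left.

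In the stem cell niche list 2 of 15 measured genes were higher: WOX5, the transcription factor of the quiescent centre, had 56 counts at low phosphate and 5 at high phosphate, 6.34-fold higher (2.79 to 22.1), and BRAVO, a repressor of quiescent centre division, was 2.12-fold higher (1.55 to 2.97). None of 25 cell cycle genes met the rule (median log2 ratio -0.05), and CYCB1;1 had 244 and 184 counts at -0.29 (-0.57 to -0.01). Of 39 histone genes 0 met the rule and 36 had a log2 ratio below 0, with a median of -0.24, where 9922 of all 18692 loci lay below 0.
Root hair genes had 0 of 23 called, yet 20 lay below 0, with a median of -0.37. RSL4, the transcription factor that sets hair length, had 690 counts at low phosphate and 793 at high phosphate, a log2 ratio of -0.90 (-1.05 to -0.75). Aquaporin genes also lay below 0 in 21 of 24 cases, and 2 were lower (PIP2E, TIP2;3) and 1 higher (TIP1;3, 25 counts at low phosphate and 3 at high phosphate). Root cap and xylem lists had 0 called of 9 and of 14, and phloem had 1 of 12, NEN4, 3.83-fold higher (1.82 to 10.6). Of the listed epidermal patterning genes ETC1 was 2.31-fold higher (1.37 to 4.29), the only 1 of 9 that met the rule. AT4G01060, annotated as CAPRICE-like MYB3 and not in that list, had 67 and 3 counts, 11.9-fold higher (4.52 to 68.5). Lateral root initiation had 2 of 7 higher, PUCHI at 2.80-fold (1.35 to 7.27) and MAKR4 at 2.35-fold (1.75 to 3.25).

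**Figure D4:**
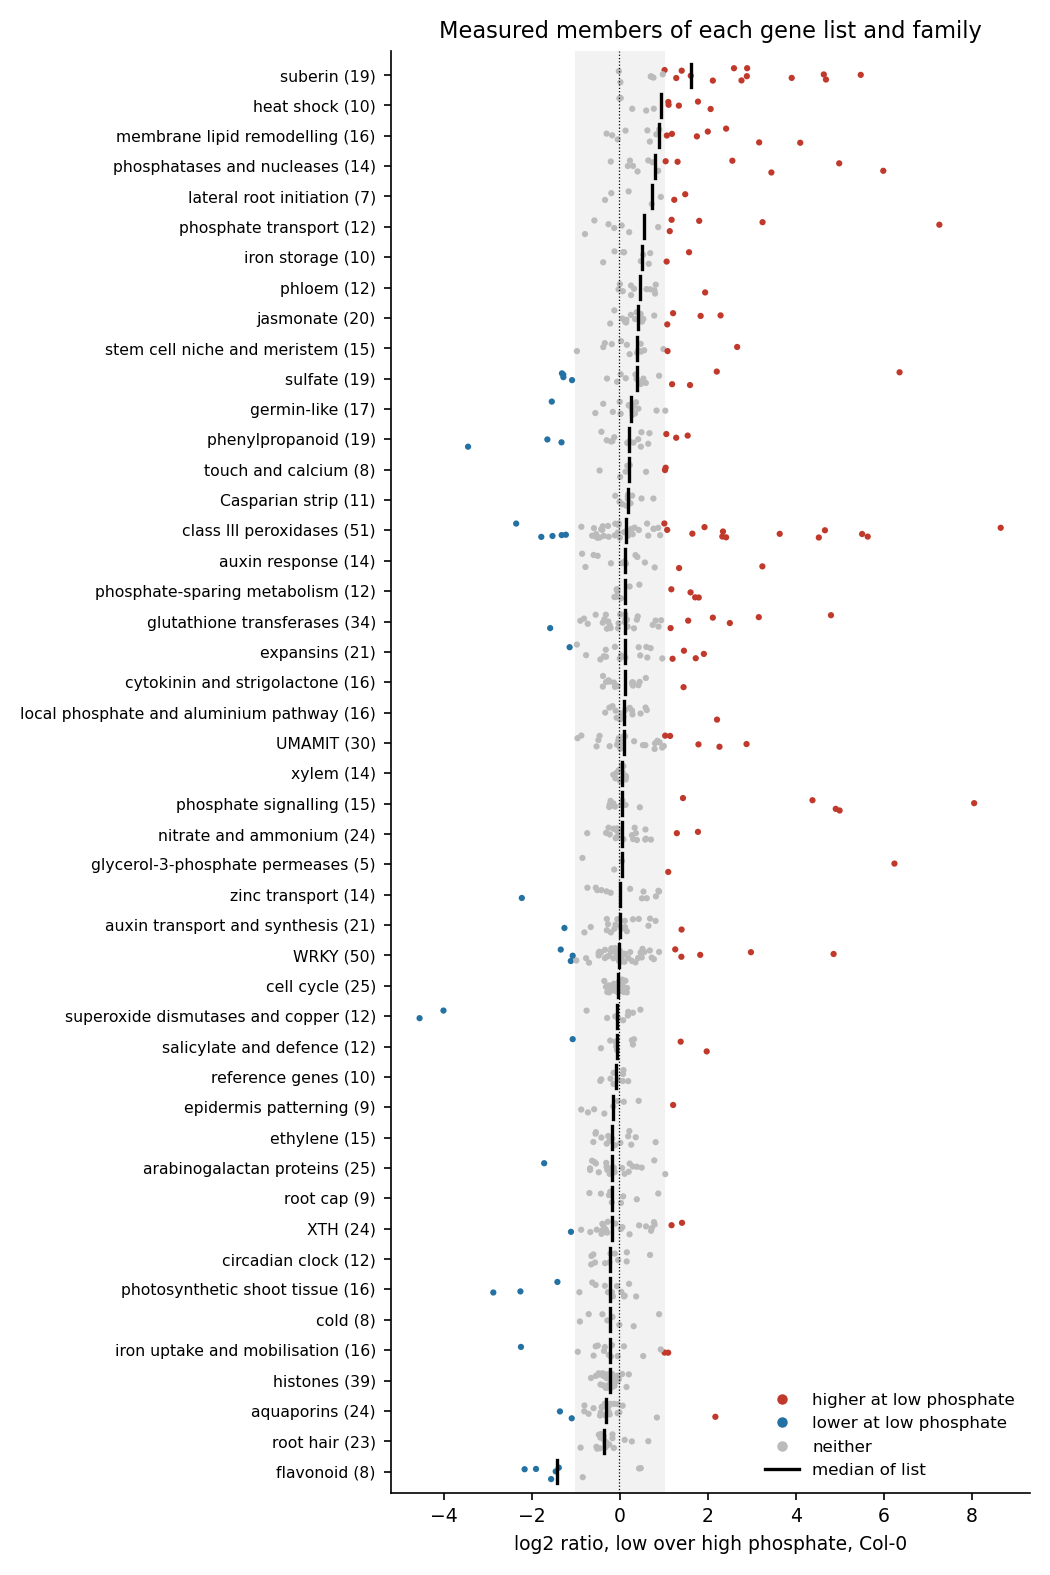
Log2 ratio of low over high phosphate in Col-0 for each measured member of every gene list and family, 1 point a gene, with the number measured in parentheses and a black bar at the list median. Red and blue points are genes higher and lower at low phosphate, grey points neither, and the grey band spans differences under 2-fold; suberin has the highest median (1.61) and flavonoid the lowest (-1.43).

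Jasmonate genes were higher in 4 of 20 measured cases and 18 of 20 lay above 0, with a median log2 ratio of 0.41; VSP1 was 4.88-fold (2.11 to 17.2), the synthesis genes AOC1 and AOC2 3.56-fold (2.11 to 6.82) and 2.31-fold (1.82 to 2.98), and the repressor gene JAZ5 2.11-fold (1.53 to 2.99) higher. AOC genes lie side by side and resemble each other, so their shares of reads are uncertain. Of auxin response genes 2 of 14 were higher, the conjugating enzyme gene GH3.3 with 53 and 3 counts, 9.43-fold (3.53 to 54.5), and IAA5 at 2.54-fold (1.41 to 5.21). NIT2, a nitrilase gene, was 2.64-fold higher (2.34 to 2.98) and the auxin synthesis gene YUC7 had 14 and 21 counts, a log2 ratio of -1.26 (-2.37 to -0.24), the 2 of 21 called in auxin transport and synthesis. Each is 4.76% of that list, beside 3.24% higher and 1.49% lower of all loci compared. MAX4, for strigolactone synthesis, was 2.72-fold higher (1.31 to 7.10), 1 of 16 in its list, and ethylene genes had 0 of 15 called, with ERF1 farthest from equality at 0.81 (-0.13 to 1.93).

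Flavonoid genes were lower in 5 of 8 measured cases and higher in 0, with a median log2 ratio of -1.43. The hydroxylase gene F3'H had 76 counts at low phosphate and 212 at high phosphate, 4.50-fold lower (3.46 to 5.95), and the chalcone isomerase gene CHI had 415 and 964, 3.76-fold lower (3.35 to 4.23). The flavonol synthase gene FLS1 was 2.96-fold lower (2.78 to 3.16) and its regulator MYB12 2.76-fold lower (2.33 to 3.27). CHS, the chalcone synthase of the first step, had 9819 and 10910 counts and a log2 ratio of -0.85 (-0.89 to -0.81), under 2-fold. In the wider phenylpropanoid list 3 of 19 were higher and 3 lower: the glucosyltransferase gene UGT84A1 had 40 counts at low phosphate and 274 at high phosphate, a log2 ratio of -3.46 (-3.99 to -2.99), 4CL3 was 3.14-fold (2.77 to 3.58) and UGT84A2 2.52-fold (2.21 to 2.88) lower, while CCR2 was 2.90-fold higher (2.17 to 4.00). UGT84A1 overlaps AT4G15475.
In the photosynthetic shoot list 3 of 16 measured genes were lower and 0 higher. The early light-induced genes ELIP2 and ELIP1 fell by 7.37-fold (5.74 to 9.69) and 4.81-fold (4.08 to 5.71). RBCS1A, a small subunit gene of Rubisco, was lower at a log2 ratio of -1.42 (-1.90 to -0.97). In med16-2, RBCS1A had 1 count at low phosphate and 0 at high phosphate. Outside the list, SIGE, a nuclear gene for a plastid sigma factor, was lower by 4.36-fold (3.49 to 5.52). The part of shoot tissue in the flavonoid result and in the photosynthetic list was not tested.

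Heat shock genes were higher in 5 of 10 measured cases, with a median log2 ratio of 0.93. HSP90.1 had 956 counts at low phosphate and 141 at high phosphate, a log2 ratio of 2.06 (1.81 to 2.33), HSP70 was 3.42-fold (2.95 to 3.99) and the heat stress factor gene HSFA2 2.53-fold (1.46 to 4.90) higher. Of 8 touch and calcium genes 2 were higher, TCH3 at 2.05-fold (1.91 to 2.21) and CBP60G with 67 counts at low phosphate and 20 at high phosphate. In the salicylate and defence list 2 of 12 measured genes were higher and 1 lower, and 7 lay below 0, with a median log2 ratio of -0.08. CHI-B and PAD3 were 3.92-fold (2.73 to 5.96) and 2.60-fold (1.70 to 4.26) higher, and WRKY70 2.11-fold lower (1.53 to 2.94). The cold, circadian clock and reference lists had 0 of 8, 0 of 12 and 0 of 10 called, with CBF1 at -0.91 (-1.91 to 0.06), PRR7 at 0.68 (0.44 to 0.94) and TUB4 at -0.45 (-0.49 to -0.40) farthest from equality.

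Of 51 measured class III peroxidase genes 13 were higher and 5 lower. AT2G18150 had 327 counts at low phosphate and 0 at high phosphate, 67.3-fold higher with 3 counts in place of 0 (the exact interval starts at 54.4-fold). AT4G36430 had 764 and 9, 49.7-fold higher (27.5 to 115). Glutathione transferase genes had 6 of 34 higher and 1 lower: GSTF6 had 1510 and 33 counts, 27.8-fold higher (20.0 to 41.2), and its neighbour and close relative GSTF7 had 469 and 32, 8.92-fold higher (6.32 to 13.4). WRKY genes had 5 of 50 higher and 3 lower, or 10% and 6%, against 3.24% and 1.49% of all loci compared. WRKY28 had 70 and 1 counts, a log2 ratio of 4.86 (2.91 to 10.76), and WRKY48 had 325 and 25, 7.88-fold higher (5.34 to 12.6).
Of wall-loosening genes, 4 of 21 expansins were higher and 1 lower, led by EXPA1 at 3.75-fold (3.16 to 4.50), and 2 of 24 XTH genes were higher and 1 lower. For XTH genes that is 8.33% higher and 4.17% lower, against 3.24% and 1.49% of all loci compared. UMAMIT amino acid transporter genes were higher in 5 of 30 cases, led by UMAMIT26 with 65 and 5 counts, 7.35-fold higher (3.27 to 25.5). Germin-like and arabinogalactan protein genes had 1 lower each, AT5G38940 of 17 and AGP30 of 25.

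The largest ratio of all belonged to AT2G04460, annotated as a pseudogene, with 1940 counts at low phosphate and 0 at high phosphate. With 3 counts in place of 0 it was 399-fold higher. Its exact interval starts at 324-fold. AT5G20790, annotated as an uncharacterized protein, had 1004 and 16 counts, 37.6-fold higher (23.7 to 68.0). AT5G44550, of the protein family UPF0497, had 178 and 1 counts, 73.4-fold higher (19.5 to 4363). Among lower loci outside the lists, the glycosyltransferase gene AT2G22590 had 28 counts at low phosphate and 137 at high phosphate, 7.82-fold lower (5.25 to 12.4). AT2G23910, annotated as a Rossmann-fold protein, was 5.09-fold lower (4.45 to 5.85), and AT1G19900, annotated as related to glyoxal oxidase, had 804 and 2290 counts, 4.61-fold lower (4.26 to 5.01). In all, 491 of the higher and 243 of the lower loci lay in no list or family.

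The same contrast in med16-2, measured in separate libraries, served to see which genes of the Col-0 response recurred. There 422 loci were higher and 193 lower at low phosphate, 2.26% and 1.03% of those compared. Both contrasts had 201 loci higher, 33.2% of the Col-0 list and 47.6% of the med16-2 list, and 44 lower, 15.8% and 22.8%. Of the loci at least 4-fold higher in Col-0, 96 of 164 were higher in med16-2. The med16-2 low phosphate library differs in make-up, with 36.6% of its reads aligned to several places, and its part in these counts was not tested.
Phosphate starvation genes recurred in 20 of the 25 cases. MGD3, SQD2, PLDZ2, PHF1 and PAP12 were the 5 that did not meet the rule in med16-2, at log2 ratios of 0.79, 0.52, 0.46, 0.95 and 0.75. Of the 13 suberin genes 7 recurred, with CYP86A1 at 5.48 (4.38 to 7.24) in Col-0 and 3.17 in med16-2. FSD1 (-4.93 in med16-2), ALMT1 (2.85) and FER1 (2.60) recurred as well.
Other genes with large ratios in Col-0 did not meet the rule in med16-2. GSTF6 was at 4.80 in Col-0 and 0.27 in med16-2, and WRKY48 at 2.98 and -0.19. In med16-2, WRKY28 had 2 counts at low and 2 at high phosphate and FRO4 had 0 and 0, all under the floor of 3 counts, so no ratio is given for them. In all, 213 of the 606 higher and 134 of the 278 lower loci differed between the genotypes by at least 2-fold with a counting interval of the difference that excluded 0, against 833 of all 18692 loci compared (4.46%). The called loci were chosen by their Col-0 ratio, which is part of this difference, so the shares are not comparable, and with 1 library a group the difference has no test.

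**Figure D5:**
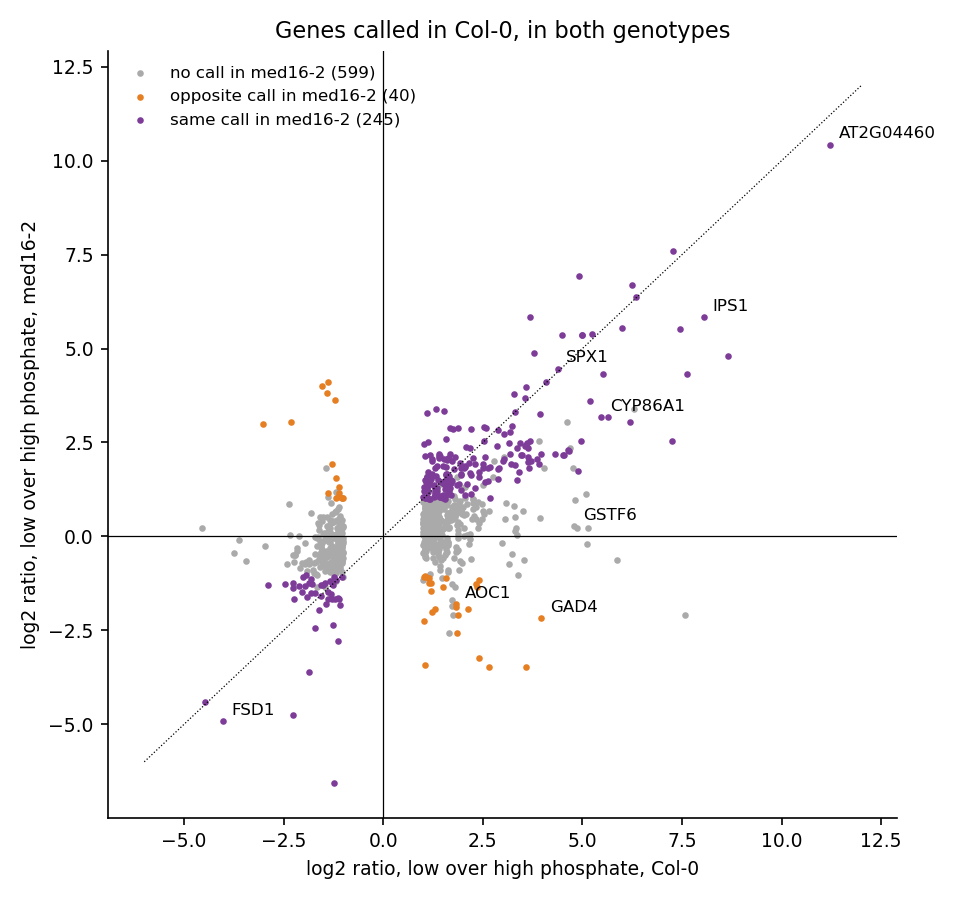
Log2 ratio of low over high phosphate in Col-0 (horizontal axis) and in med16-2 (vertical axis) for the 884 genes called in Col-0, with the dotted line marking equal ratios. Purple points are the 245 with the same call in med16-2, orange points the 40 with the opposite call and grey points the 599 with none; SPX1 lies on the dotted line, IPS1 to the right of it and GSTF6 near the line of no difference in med16-2.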

How the data were processed

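Root tip mRNA of Col-0 and med16-2 seedlings at low and high phosphate was sequenced from unstranded libraries made from 5 µg of total RNA, 1 library a group, per the labels' protocols. The authors deposited raw counts, whole reads per locus with no normalization; TAIR10, HTSeq 0.6.0, TopHat2 2.0.9 and Trimmomatic 0.35 are named, per the submitters' processing notes, with settings not given in the sources used here. Lines that name no gene held 9.89% of listed reads at low phosphate and 12.5% at high phosphate in Col-0 and stayed out of library sizes. Reads with several alignments are listed apart, which can lower counts of near-identical genes.

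Library sizes were scaled by the trimmed mean of M values over the 4 libraries (edgeR 4.0.16, factors of 1.017 for low and 0.9774 for high phosphate in Col-0). Log2 ratios used counts plus 0.5, and exact 95% intervals (Clopper-Pearson on the share of both counts) came from scipy 1.17.1. The interval of a difference between genotypes was normal. Names, exonic lengths and sequences of 32835 loci came from RefSeq TAIR10.1 by locus identifier. No genome coordinates are in the count tables.

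The members, the 37 gene lists, the 10 families and the rules were chosen with earlier results of these data known. Named genes were the 15 with the largest ratio in each direction with a mean of at least 5 CPM over the Col-0 libraries, up to 4 called members of each list (or the member farthest from equality), and a fixed set of 24. Other list members, and loci that are in no list, were named after their values had been seen. PEPC1 is the RefSeq symbol for the gene often written PECP1. DESeq2 1.42.0 size factors, other filters, pseudocounts and thresholds were tried as alternatives.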

Additional observations from a re-analysis of the deposited data

Results flagged for a closer look

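Genes whose phosphate contrast met the rule in opposite directions in Col-0 and med16-2 stood out, since each contrast was measured in its own libraries. Of the 606 loci higher in Col-0 at low phosphate, 25 were lower in med16-2. Of the 278 lower in Col-0, 15 were higher in med16-2. Over all loci compared, 1.03% were lower and 2.26% higher in med16-2. The difference between genotypes was not tested, as each group has 1 library. AOC1, which encodes an allene oxide cyclase of jasmonate synthesis, had a log2 ratio of 1.83 (1.07 to 2.77) in Col-0, from 89 counts at low phosphate and 15 at high phosphate. In med16-2 its log2 ratio was -1.80 (-3.66 to -0.47), from 5 and 22 counts.

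Other members of the 25 were GAD4, a glutamate decarboxylase gene, at 3.97 in Col-0 and -2.17 in med16-2. The peroxidase gene AT5G39580 was at 2.34 and -1.27. Of the 15, 2 are mitochondrial loci, and mitochondrial loci took 1.25% of gene counts at low and 0.501% at high phosphate in Col-0, and 1.03% and 0.231% in med16-2. Most of those counts came from ATMG00020, which was higher at low phosphate in both genotypes, with 68365 and 17381 counts in med16-2. In the med16-2 low phosphate library 36.6% of reads aligned to several places. Loci that RefSeq types as ribosomal RNA took 1.38% of its gene counts. ATMG00020 is not typed so and has no product name in the annotation used. Whether it is ribosomal RNA is not shown here, so that share may miss such reads. The mitochondrial locus ATMG01080 had 29 and 42 counts at low and high phosphate in Col-0 and 247 and 23 in med16-2. The part of that library's make-up in these calls was not tested.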

How the results depend on the processing

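No paired analysis was possible because each group has 1 library, and for the same reason no replicate could be left out. Scaling by total counts called 684 loci higher and 239 lower, DESeq2 size factors 608 and 274, and a pseudocount of 5 456 higher and 268 lower. A minimum mean of 5 CPM left 255 higher and 134 lower loci, 106 higher and 20 lower in both genotypes, and 5 suberin genes higher. Requiring the interval to lie wholly beyond 2-fold left 268 higher and 85 lower, with 85 higher and 12 lower in both genotypes. In both cases these are subsets made by a stricter rule. Across the 8 alternatives 20 to 28 phosphate starvation genes were higher, 5 flavonoid genes were lower in each, and the share of genes higher with a P1BS window ran from 10.2% to 13.5%. No called gene named by the rule changed sign where it was still compared. Of the 138 genes so named, called or not, a minimum of 5 CPM left out 44. A minimum over the Col-0 libraries alone left out 1. Of the called genes among the 138, 31 fell short of the rule when the interval had to lie beyond 2-fold, and 10 with a pseudocount of 5. Depth limits genes with few reads: the interval of MYB93, with 1 count at high phosphate, spans 6.62-fold to 1535-fold.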

Other observations

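Some genes of other groups, chosen after their values had been seen, also met the rule. Among them were 3 genes for making methionine-derived glucosinolates, defence compounds of the mustard family, picked singly and not from a list. The aminotransferase gene BCAT4 had 253 counts at low phosphate and 9 at high phosphate, MAM1, for chain elongation, had 138 and 7, and CYP83A1, for the core pathway, had 418 and 31. Their log2 ratios were 4.04 (3.17 to 5.26), 3.51 (2.52 to 4.95) and 3.04 (2.53 to 3.63). BCAT4, OCT1 and KAT5 each overlap a neighbouring gene on the other strand, whose reads cannot be told apart here.

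The beta-amylase gene BAM5 had 154 counts at low phosphate and 0 at high phosphate in Col-0, and 0 and 2 counts in med16-2. With 3 counts in place of 0 it was 31.7-fold higher in Col-0 (the exact interval starts at 25.5-fold). OCT1, annotated as an organic cation and carnitine transporter gene, had 1400 and 38 counts, 22.4-fold higher (16.5 to 32.3). KAT5, a peroxisomal thiolase gene, had 580 counts at low phosphate and 1166 at high phosphate, a log2 ratio of -1.70 (-1.85 to -1.56). The precursor locus MIR163 had 204 and 318 counts, 2.52-fold lower (2.11 to 3.03). ATMG00020, a mitochondrial locus, had 134912 and 31386 counts, 2.65-fold higher (2.62 to 2.69), the most read of all loci at low phosphate.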
